A study of Mus musculus with 3 samples.

Results

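The chaperonin CCT, also called TRiC, is a barrel of stacked rings in the cytosol, and each ring is put together from the products of the CCT genes. Unfolded proteins enter its chamber and are released folded after ATP has been hydrolysed, and actin and tubulin are its best known substrates. HSP90 is a cytosolic dimer that closes like a clamp on nearly folded proteins, among them many kinases and the steroid receptors. It takes over substrates from HSP70 with the help of co-chaperones, and in T cells the kinase Lck is one of its known clients. Hsp90aa1 encodes the HSP90 form that is induced by stress, and Hsp90ab1 the form that is made constitutively. The 10 genes described here are the 8 CCT genes Tcp1, Cct2, Cct3, Cct4, Cct5, Cct6a, Cct7 and Cct8 and the 2 HSP90 genes. All isoforms that the long-read libraries listed for these genes were taken, which gave 178 of 34238 isoforms in the series.

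The libraries came from wild-type (WT) CD4+ T cells from spleens and lymph nodes of young adult male C57BL/6N mice, sequenced on the PacBio platform (Iso-Seq). Naive cells, undivided cells after 48 h of activation and cells with 2 divisions after the same 48 h gave 1 library each. Activation was in culture on anti-CD3 antibody with anti-CD28 antibody added, and divisions were sorted by dilution of the dye CellTrace Violet. The study describes the undivided cells as uneven in their surface activation markers, and how many mice were pooled was not given in the sources used here. The deposited data list the exons of each isoform on the mouse genome GRCm38 and hold no read counts, so nothing is known of how abundant an isoform was. With 1 library per group no test was possible, and each difference is one between libraries. The deposit names the same sequencer cell for both libraries of activated cells and a different one for naive cells, so activation and sequencer cell cannot be told apart. A longer list of isoforms may reflect more RNA of a gene, more sequenced molecules or more forms, and these cannot be told apart in bulk samples without counts.

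The naive library listed 10527 isoforms in all, the undivided library 12602 and the library of 2 divisions 11109. Of 6 markers of CD4 T cells 6, 5 and 5 had an isoform in naive, undivided and 2-division cells, with 28, 36 and 25 isoforms in these libraries. Cd4 itself had 4, 5 and 4 isoforms and Cd5 had 13, 21 and 17. Cd3e had 4, 7 and 1, Cd28 had 3, 2 and 2, Cd3d had 2, 1 and 1, and Cd3g had 2, 0 and 0. Of 4 markers of activation 1 was seen in naive cells, 4 in undivided and 4 in 2-division cells, with 7, 38 and 24 isoforms in these libraries. Of 6 markers of B cells 5 were seen in naive cells, 2 in undivided and 2 in 2-division cells, with 20, 6 and 5 isoforms in these libraries, of which Ighm had 12, 5 and 4. Markers of CD8 T and NK cells had 1, 2 and 1 isoforms in naive, undivided and 2-division cells over 4 genes and those of myeloid cells 1, 1 and 1 over 4 genes, while Cd79a, Cd8a, Klrd1, Itgam and Csf1r had no isoform in any library. The part of other cells in the values below was not tested.

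Every member had an isoform in each library, and most had more in the activated libraries. The 10 genes had 31, 70 and 77 isoforms in naive, undivided and 2-division cells. Relative to naive cells this was 2.26-fold as many in undivided and 2.48-fold as many in 2-division cells, where all isoforms of these libraries stood at 1.20-fold and 1.06-fold. The members made up 0.294% of all isoforms in naive cells (exact 95% interval by Clopper and Pearson 0.200% to 0.418%, for counting error alone, as are the other intervals given). In undivided cells the share was 0.555% (0.433% to 0.701%) and after 2 divisions 0.693% (0.547% to 0.866%). The CCT genes had 19, 44 and 54 isoforms in naive, undivided and 2-division cells, and the HSP90 genes 12, 26 and 23. A member had between 1 and 7 isoforms in naive cells with a median of 3, between 4 and 16 in undivided cells with a median of 5.5, and between 3 and 12 after 2 divisions with a median of 7.

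A gene was counted as having more isoforms in a library when it had at least 2-fold as many and at least 2 more. In undivided cells against naive cells 6 of 10 members passed this rule (Tcp1, Cct2, Cct4, Cct6a, Cct8 and Hsp90ab1), where 16.8% of the 6479 genes listed in either library did. After 2 divisions against naive cells 7 of 10 passed, with Cct7 added, where 14.1% of 6266 genes did. At 3-fold, with at least 2 more, the members that passed were 3 of 10 in undivided cells (Tcp1, Cct6a and Hsp90ab1) and 4 of 10 after 2 divisions (Tcp1, Cct2, Cct4 and Cct6a), and 14.1% and 12.1% of all genes did. The rule was also applied to isoforms that ran from the first to the last exon of the gene's reference transcript. Then 5 of 10 members passed in undivided cells (Tcp1, Cct2, Cct3, Cct4 and Cct6a), where 12.4% of genes did. After 2 divisions 4 of 10 passed (Tcp1, Cct2, Cct6a and Cct7), where 10.1% of genes did, and neither set held an HSP90 gene. No member passed in the other direction, where 7.55% of genes had fewer isoforms in undivided cells and 9.64% had fewer after 2 divisions. Of the members, 10 had more isoforms in undivided cells than in naive cells by any number and 9 had more after 2 divisions, while over all genes 49.1% did in undivided and 43.8% in 2-division cells. The median difference from naive cells was 3 isoforms for the members in undivided cells and 4 after 2 divisions, against 0 over all genes in both comparisons. Between 2 divisions and undivided cells, Cct2 was the 1 member that passed, with 10 isoforms after 2 divisions and 5 in undivided cells. Of all 6305 genes 4.93% passed in that direction and 8.88% in the other, in which no member passed.

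**Figure D1:**
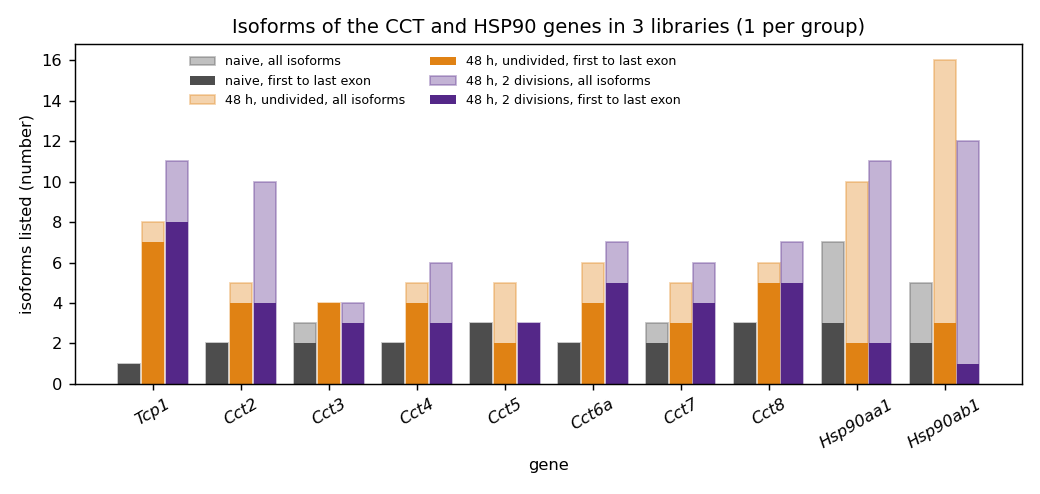
Number of isoforms listed (y axis) for each gene (x axis) in naive cells and in undivided and 2-division cells at 48 h of activation. Pale bars count all isoforms and dark bars the isoforms that run from the first to the last exon of the reference transcript. Tcp1 stands at 1, 8 and 11 isoforms in naive, undivided and 2-division cells, and the dark bars of both HSP90 genes stay at 3 or below in all libraries.

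Many of the further isoforms began inside the gene. Each isoform was set against a reference transcript of its gene, which was the protein-coding GENCODE transcript with the longest coding sequence. Isoforms that began in the first exon of the reference and ended in its last exon numbered 22 in naive cells and 38 in each of the activated libraries, a 1.73-fold difference. Over all genes there were 1.27-fold as many of these in undivided cells and 1.10-fold as many after 2 divisions as in naive cells. They made up 73.3%, 54.3% and 49.4% of the multi-exon isoforms of the members in naive, undivided and 2-division cells, against 78.0%, 76.2% and 75.3% over all genes. For the CCT genes there were 17, 33 and 35 of these in naive, undivided and 2-division cells, and for the HSP90 genes 5, 5 and 3. A start in the first exon was seen for 86.7% of the multi-exon isoforms of the members in naive cells (26 of 30), for 64.3% in undivided cells (45 of 70) and for 57.1% in 2-division cells (44 of 77). Over all genes the shares were 89.3% for naive, 84.9% for undivided and 84.2% for 2-division cells. The intervals of the members lay below the shares of all genes in the activated libraries. They ran from 51.9% to 75.4% for undivided and from 45.4% to 68.4% for 2-division cells. In naive cells the interval, 69.3% to 96.2%, included the share of all genes. For the CCT genes alone the share was 79.5% in undivided cells (35 of 44, 64.7% to 90.2%), and the interval included that of all genes. After 2 divisions it was 66.7% (36 of 54, 52.5% to 78.9%), below that of all genes. For the HSP90 genes it was 38.5% in undivided (10 of 26, 20.2% to 59.4%) and 34.8% in 2-division cells (8 of 23, 16.4% to 57.3%).
The positions at which isoforms began past the first exon were rarely shared. With starts within 10 nt merged, there were 53 starts past the first exon, of which 48 were in 1 library, 3 in 2 libraries and 2 in all 3. None lay within 10 nt of the start of an annotated transcript.

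The intron chain, which is the ordered set of introns of an isoform, matched an annotated transcript in 40% of the multi-exon isoforms of the members in naive cells (12 of 30, interval 22.7% to 59.4%). In undivided cells it did in 27.1% (19 of 70, 17.2% to 39.1%) and after 2 divisions in 26% (20 of 77, 16.6% to 37.2%). Over all genes the naive library had such a chain for 60.8% of multi-exon isoforms, the undivided library for 62.0% and the 2-division library for 63.5%. When a consecutive part of an annotated chain was also accepted, the shares of the members were 66.7%, 68.6% and 74.0% in the same 3 libraries, and those of all genes under the same rule were 73.6%, 78.1% and 80.7%. The interval of the members together included the share of all genes in each library. For the CCT genes alone the shares were 55.6%, 52.3% and 63%. The share of all genes lay above their interval in undivided cells (36.7% to 67.5%) and after 2 divisions (48.7% to 75.7%). For the HSP90 genes they were 83.3%, 96.2% and 100%, and the share of all genes lay below their interval in both activated libraries. The CCT counts include Cct6a, of which no isoform could match, as described below. The members had 86 distinct chains, of which 20 were in all 3 libraries, 14 in both activated libraries alone, 4 in naive cells alone, 20 in undivided cells alone and 27 after 2 divisions alone. The whole chain of an annotated transcript without a skipped exon or a retained intron was listed in all 3 libraries for 9 of the 10 members, Cct6a being the exception.

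**Figure D2:**
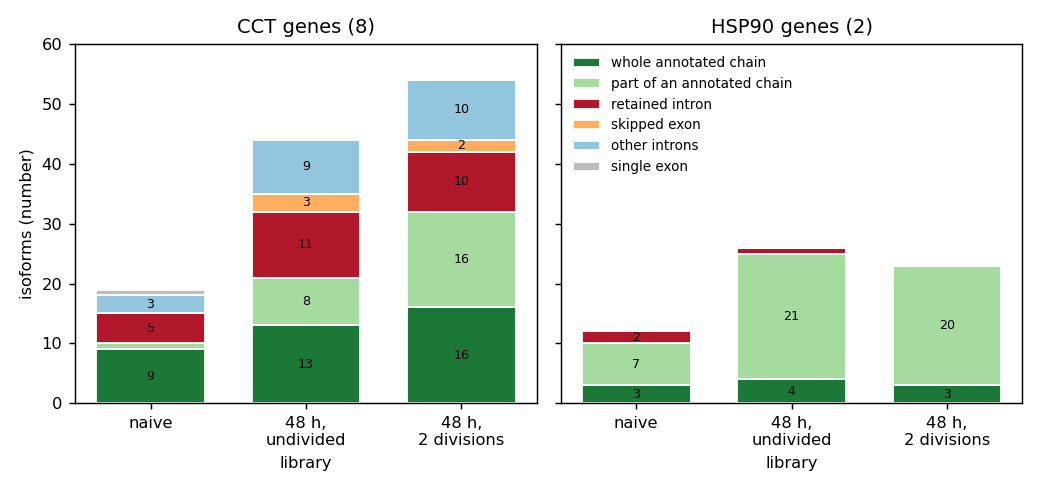
Number of isoforms (y axis) of the CCT genes and of the HSP90 genes in naive, undivided and 2-division cells (x axis), split by how their introns compare with the annotation. Isoforms that retain an intron or skip an exon of the reference have classes of their own, also where their chain is annotated. Among the others, parts of an annotated chain number 1, 8 and 16 for the CCT genes and 7, 21 and 20 for the HSP90 genes. Whole annotated chains among them number 9, 13 and 16 and 3, 4 and 3.

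Tcp1, which encodes the alpha subunit of CCT (chr17:12915701-12925067, plus strand), had the largest difference of the CCT genes. Naive cells had 1 isoform of it, undivided cells 8 and 2-division cells 11. The naive isoform was 1875 nt long, had the 12 exons of the transcript Tcp1-209 and ended 80 nt past the stop codon. In the activated libraries the same chain was listed 4 times in undivided cells and 5 times after 2 divisions, and the copies differed at the 3′ end. Besides the end at 80 nt, both activated libraries had ends at 491, 587 and 627 nt past the stop codon, so that 4 ends in the last exon stood in each activated library against 1 in naive cells. The end at 80 nt was the end of 1, 4 and 8 isoforms in naive, undivided and 2-division cells, and each of the 3 longer ones of 0, 1 and 1.
The last 30 bases before 3 of these ends are shown because they differ in the poly(A) signal, the hexamer that cleavage factors bind a short way before the cut. The hexamer is in capitals.
Tcp1 end at 80 nt (chr17:12924527-12924556, plus strand): gggtgtctcacATTAAAgtacagcaagctg
Tcp1 end at 491 nt (chr17:12924938-12924967, plus strand): aaaccttaggAATAAAtaggcctatgtgac
Tcp1 end at 587 nt (chr17:12925034-12925063, plus strand): taactcagaAATAAAtctgcctgcctttgc
The end that naive cells shared had the variant ATTAAA 13 nt before the cut, and the ends at 491 and 587 nt had AATAAA 14 and 15 nt before it. Besides AATAAA and ATTAAA, 8 rarer variants were searched in the 50 nt before each end on the transcript strand. These were AGTAAA, further TATAAA, further CATAAA, further GATAAA, further AATATA, further AATACA, further AATAGA, and also ACTAAA. No more than 2 of the next 20 bases were A at any of these 3 ends. The end at 627 nt, which is not shown, had none of the hexamers searched and lay 36 nt past the nearest annotated end.
Of the other Tcp1 isoforms of the activated libraries, 4 were shortened parts of the annotated chain. In undivided cells 1 of these stopped in exon 7, at codon 242, with none of the hexamers searched before the end and 11 A in the next 20 bases. After 2 divisions 3 of these began past the first exon and had 10, 7 and 5 exons. The rest were spliced differently. In each activated library 1 isoform skipped exon 2 (86 nt), a chain annotated as Tcp1-201, and reading from the start codon met a stop after 26 codons in place of 556. Intron 4 of 366 nt was held in 2 isoforms in undivided cells, in 1 after 2 divisions and in none in naive cells. In undivided cells, 1 of them also held introns 3 and 5, and after 2 divisions a further isoform held introns 5 and 6. Intron 4 of Tcp1 contains the annotated small nucleolar RNA gene Gm26130. It was the 1 of 22 retained introns of the members that contained a small RNA gene, while 4 of 119 reference introns did.

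Cct2, which encodes the beta subunit (chr10:117051001-117063814, minus strand), had 2, 5 and 10 isoforms in naive, undivided and 2-division cells. All 17 ended at 1 site 240 nt past the stop codon, with AATAAA 13 nt before it, and the number of isoforms therefore came from starts and introns. Those beginning in the first exon numbered 2 in naive, 4 in undivided and 4 in 2-division cells. After 2 divisions 5 isoforms were shortened parts of the annotated chain, with 8 to 13 exons in place of 16, and in undivided cells 1 was, with 14 exons. Each library had an isoform with an annotated splice acceptor 146 nt upstream of that of the reference, at the intron chr10:117055382-117056039, and in all of them the reading frame closed after 370 of 535 codons. Intron 5, of 94 nt, was held in 0 isoforms of naive, 1 of undivided and 2 of 2-division cells. In 1 isoform of undivided cells, 2 junctions were each displaced by 1 nt and lacked the GT or the AG of a usual intron.

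Cct3 and Cct4 encode the gamma and delta subunits, and each had a single end in the last exon. Cct3 (chr3:88297116-88321767, plus strand) had 3, 4 and 4 isoforms in naive, undivided and 2-division cells, and Cct4 (chr11:22990519-23003780, plus strand) had 2, 5 and 6. This end was in every library, 218 nt past the stop codon in Cct3 and 185 nt in Cct4, with ATTAAA before both. Cct3 had an acceptor 151 nt upstream of the reference acceptor in 1 isoform of each activated library and in none of naive cells, and its reading frame closed after 266 of 545 codons. The 1 single-exon isoform of the members was a Cct3 isoform of naive cells, 1828 nt long, which ended in an intron where 15 of the next 20 bases were A.
Exon skipping in Cct4 was seen in undivided cells alone. There 1 isoform lacked exons 5 and 7 (143 and 133 nt) and another lacked exons 6, 7 and 8 (122, 133 and 140 nt), through junctions that are not annotated and have GT and AG at their ends. In the first of these isoforms the 276 missing bases are a multiple of 3, yet exon 6 stood between them out of frame and a stop was met after 147 of 539 codons. In the second the stop came after 177 codons.

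Cct5, which encodes the epsilon subunit (chr15:31590800-31601804, minus strand), was the member without a gain after 2 divisions, with 3, 5 and 3 isoforms in naive, undivided and 2-division cells. Its naive isoforms and those of 2 divisions all began in the first exon, and 2 of 5 did in undivided cells. Ends at 44 and 112 nt past the stop codon were present in all 3 libraries, each with AATAAA 13 nt before it, and an end at 19 nt was added after 2 divisions. Intron 7 was held in 1 isoform of naive cells and in no other library.
Cct7, which encodes the eta subunit (chr6:85451514-85468475, plus strand), had 3, 5 and 6 isoforms in naive, undivided and 2-division cells. The end at 105 nt past the stop codon, with AATAAA, carried 3 of them in naive, 4 in undivided and 4 in 2-division cells. An end at 198 nt, which is the annotated end and has the variant AGTAAA 17 nt before it, was listed in both activated libraries and not in naive cells, and an end at 144 nt after 2 divisions alone. A shortened isoform of 6 exons began at exactly the same base, 85464778, in all 3 libraries, inside an intron of the reference and 2626 nt from the nearest annotated start.

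Cct6a encodes the zeta subunit (chr5:129786998-129846371, plus strand) and had 2, 6 and 7 isoforms in naive, undivided and 2-division cells. Its gene model is damaged in this assembly, and GENCODE M21 gives it no coding transcript. The reference used was therefore Cct6a-202, its longest basic transcript, with start and stop codons from RefSeq. All 15 isoforms held an unannotated intron, chr5:129794561-129844936, which has GT and AG at its ends and spans 50000 unknown bases of the assembly. For this reason no Cct6a chain could match an annotated one. On this assembly the reading frame of each Cct6a isoform with the start codon closed before this intron. It closed after 416 codons in those without a retained intron, and Cct6a was left out of the counts of the reference stop. Ends at 259 and 535 nt past the RefSeq stop codon were in all 3 libraries. An end at 95 nt was in undivided cells alone, and ends at 230 and 610 nt after 2 divisions alone, with 1 isoform each. After the ends at 95, 230 and 610 nt, 10, 12 and 6 of the next 20 bases were A. Of these 5 ends, those at 535 and 610 nt had AATAAA and the other 3 had none of the hexamers searched.

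Cct8, which encodes the theta subunit (chr16:87483326-87495873, minus strand), had 3, 6 and 7 isoforms in naive, undivided and 2-division cells. It was the CCT gene with the widest pair of ends that all libraries shared, at 111 and 661 nt past the stop codon. The end at 111 nt was that of 2 isoforms in naive, 4 in undivided and 5 in 2-division cells, and the one at 661 nt that of 1 isoform in each. The bases before both ends are shown because each has a full AATAAA, in capitals.
Cct8 end at 111 nt (chr16:87483877-87483906, minus strand): tgctgggtggtacAATAAAtgtgttactgt
Cct8 end at 661 nt (chr16:87483327-87483356, minus strand): taAATAAAcatgattttttttctgtcattt
The shorter end lay 111 nt from the nearest annotated Cct8 end and the longer one 1 nt from another. Both activated libraries also had an isoform that stopped in exon 13, at codon 472 of 548, where 12 of the next 20 bases were A. After 2 divisions 1 isoform skipped exon 2 (91 nt), and reading from the start codon met a stop after 21 codons. Another had an annotated acceptor 21 nt downstream of the reference acceptor, and it read 541 codons to the reference stop.

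Retained introns were found in isoforms of all 8 CCT genes and both HSP90 genes. A reference intron was called retained when it lay whole within an exon. In naive cells 22.6% of the isoforms of the members held one (7 of 31, interval 9.59% to 41.1%), in undivided cells 17.1% (12 of 70, 9.18% to 28%) and after 2 divisions 13.0% (10 of 77, 6.41% to 22.6%). Over all genes the shares were 16.4% in naive, 10.7% in undivided and 9.86% in 2-division cells, each within the interval of the members. For the CCT genes alone it was 26.3% in naive cells (5 of 19, interval 9.15% to 51.2%), 25.0% in undivided cells (11 of 44, 13.2% to 40.3%) and 18.5% after 2 divisions (10 of 54, 9.25% to 31.4%). The share of all genes lay below the interval of the CCT genes in undivided cells and within it in the other 2 libraries. Of the HSP90 isoforms 2 of 12 in naive, 1 of 26 in undivided and 0 of 23 in 2-division cells held one.
The same introns recurred in part. Of the 119 introns of the reference transcripts 22 were held in at least 1 isoform, 3 of them in all 3 libraries, 6 in 2 libraries and 13 in 1 library. The 3 shared by all libraries were intron 3 of Cct3 with 1, 2 and 1 isoforms in naive, undivided and 2-division cells, and intron 9 of Cct4 and intron 10 of Cct7 with 1 isoform in each library. Their splice sites are shown because these introns stayed in the transcript in every library. The first and last bases of the intron, GT and AG, are in capitals.
Cct3 intron 3 donor (chr3:88300848-88300856, plus strand): aagGTtgga
Cct3 intron 3 acceptor (chr3:88300914-88300931, plus strand): tttgctttttcttAGatg
Cct4 intron 9 donor (chr11:23000952-23000960, plus strand): aagGTaaaa
Cct4 intron 9 acceptor (chr11:23001347-23001364, plus strand): attatctttttccAGaca
Cct7 intron 10 donor (chr6:85467157-85467165, plus strand): aagGTactg
Cct7 intron 10 acceptor (chr6:85467564-85467581, plus strand): gtttggtttctgtAGaat
All 3 have GT and AG. They are 78, 407 and 419 nt long, and the first of them is also retained in annotated transcripts of Cct3 (Cct3-205, Cct3-206 and Cct3-207) and the second in Cct4-202, while no annotated Cct7 transcript holds intron 10. In both activated libraries and not in naive cells 5 introns were held, and in naive cells alone 3, namely intron 7 of Cct5 and introns 8 and 9 of Hsp90aa1. Retained introns had a median length of 319 nt and a range of 74 to 1685 nt, and the other introns of the members a median of 566 nt.
All 29 isoforms with a retained intron began in the first exon and ended in the last exon, so none was shortened at either end. The shares above are over all isoforms, shortened ones included, and so depend on how many were shortened. Of the first-to-last-exon isoforms of the members, 7 of 22 in naive, 12 of 38 in undivided and 10 of 38 in 2-division cells retained an intron. The same share over all genes was not worked out. Read from the start codon, all 29 met a stop before the reference stop, 24 of them inside a retained intron. The Cct6a isoforms among the 29 could not reach the reference stop on this assembly in any case. In all 29 the early stop lay more than 50 nt before the last exon junction. Such an arrangement is known to mark transcripts for nonsense-mediated decay in mammals. Whether these RNAs were degraded was not tested.

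**Figure D3:**
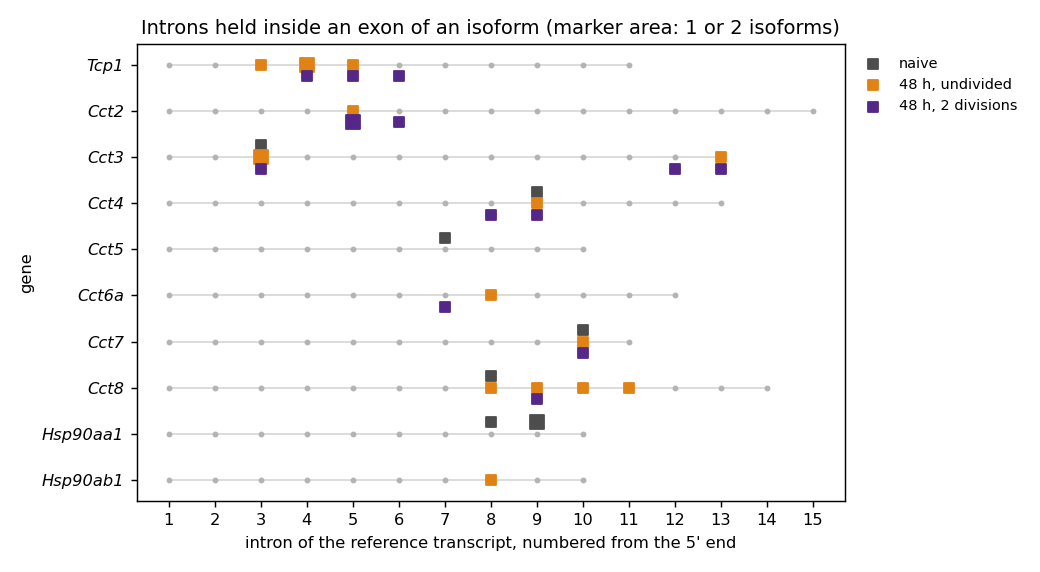
Introns of each gene (y axis), numbered from the 5′ end of the reference transcript (x axis, grey dots), that lay within an exon of an isoform in the naive, undivided or 2-division library (coloured squares, area by 1 or 2 isoforms). Intron 3 of Cct3, intron 9 of Cct4 and intron 10 of Cct7 carry squares of all 3 libraries, and the squares of Hsp90aa1 are from naive cells alone.

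Skipped exons were few. An exon was called skipped when it lay whole inside an intron of an isoform. Of the multi-exon isoforms of the members 0% skipped one in naive cells (0 of 30, which allows up to 11.6%), 4.29% in undivided cells (3 of 70, 0.893% to 12%) and 2.60% after 2 divisions (2 of 77, 0.316% to 9.07%). Over all genes 11.7% did in naive, 11.2% in undivided and 9.91% in 2-division cells. These shares lay above the interval of the members in naive and in 2-division cells and within it in undivided cells. The member shares count shortened isoforms, which cannot show a skip of an exon that they lack. Among member isoforms that started by the first coding exon, 0% skipped one in naive, 6.52% in undivided and 4.35% in 2-division cells. No such share over all genes is given here. All 5 skipping isoforms were from Tcp1, Cct4 and Cct8, all lost the reference stop, and none was from an HSP90 gene.
With Cct6a left out, the reference stop was reached by 12 of the 20 first-to-last-exon isoforms of naive cells, 17 of 34 of undivided cells and 20 of 33 of 2-division cells. The shares were 60% for naive (36.1% to 80.9%), 50% for undivided (32.4% to 67.6%) and 60.6% for 2-division cells (42.1% to 77.1%), with overlapping intervals.

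Most isoforms of the HSP90 genes were shortened parts of an annotated chain, namely 58.3% of them in naive, 80.8% in undivided and 87% in 2-division cells. Over all genes such parts made up 12.8%, 16.1% and 17.2% of the multi-exon isoforms of these libraries. Hsp90aa1 (chr12:110690605-110702728, minus strand) had 7, 10 and 11 isoforms in naive, undivided and 2-division cells, and Hsp90ab1 (chr17:45567775-45573271, minus strand) had 5, 16 and 12. The whole annotated chain was in 1 isoform of Hsp90aa1 in naive, 2 in undivided and 2 in 2-division cells, and in 2, 2 and 1 of Hsp90ab1 in these libraries. No HSP90 isoform skipped an exon. The whole Hsp90aa1 chain was that of Hsp90aa1-202, whose 5′ intron chr12:110695681-110696251 was in 6 isoforms of naive, 5 of undivided and 5 of 2-division cells. The start lay in the first exon for 6 of 7 Hsp90aa1 isoforms in naive, 5 of 10 in undivided and 5 of 11 in 2-division cells. For Hsp90ab1 it did for 3 of 5 in naive, 5 of 16 in undivided and 3 of 12 in 2-division cells. The other isoforms began in exons 3 to 9 of Hsp90aa1 and in exons 2 to 10 of Hsp90ab1. For Hsp90ab1 a start at bases 45569790 to 45569792 in exon 7 was in all 3 libraries, with 1 isoform in naive, 2 in undivided and 2 in 2-division cells.
Introns 8 and 9 of Hsp90aa1 were held together in 1 isoform of naive cells and intron 9 alone in another, and neither was held in the activated libraries. Intron 8 of Hsp90ab1 was held in 1 isoform of undivided cells.

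**Figure D4:**
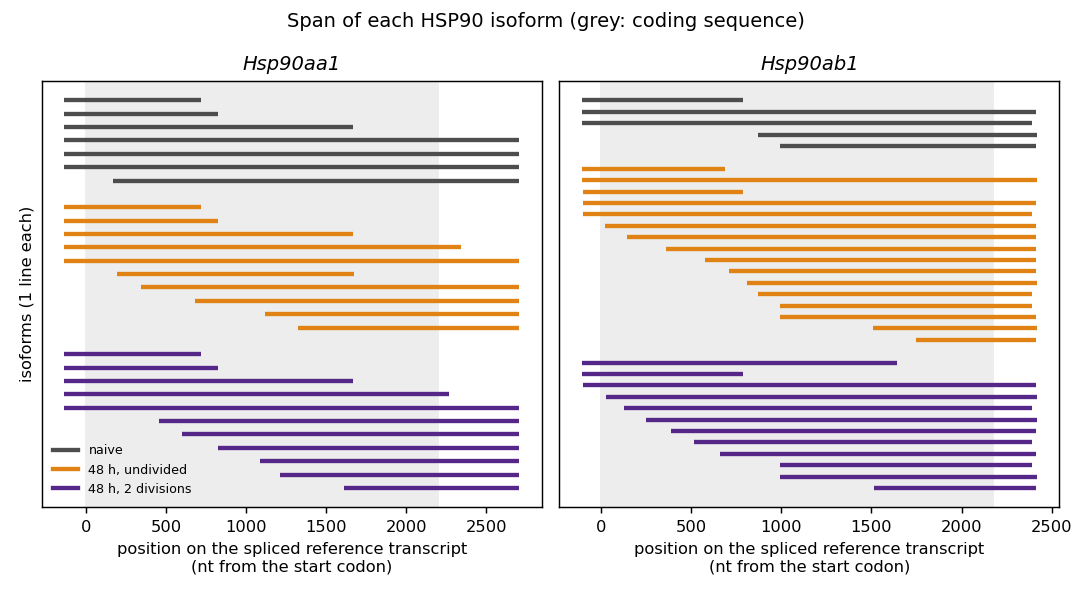
Span of each isoform of Hsp90aa1 and Hsp90ab1 on the spliced reference transcript (x axis, nt from the start codon, 1 line per isoform), coloured by library, with the coding sequence in grey. Lines that begin inside the grey area are 1 of 7, 5 of 10 and 6 of 11 for Hsp90aa1 and 2 of 5, 11 of 16 and 9 of 12 for Hsp90ab1, in naive, undivided and 2-division cells.

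Isoforms of both HSP90 genes also stopped early, at positions that recurred between libraries. Hsp90aa1 had ends at codons 240 and 274 of 733 in exon 5 and at codon 556 in exon 9, and each of these 3 ends was in all 3 libraries. Hsp90ab1 had an end at codon 262 of 724 in exon 6 in all 3 libraries, an end at codon 230 in the same exon in undivided cells, and an end at codon 548 in exon 9 after 2 divisions. The ends of the paralogs thus lay at near positions of the coding sequence, around codons 230 to 274 and 548 to 556. The 20 bases that follow each end are shown, with A in capitals, because a run of A in the RNA can prime reverse transcription as a poly(A) tail does.
Hsp90aa1 after codon 240 (chr12:110694267-110694286, minus strand): AAAgAggAAgAgAAAgAAAA
Hsp90aa1 after codon 274 (chr12:110694165-110694184, minus strand): AAgAAgAAAAAgAAgAAgAt
Hsp90aa1 after codon 556 (chr12:110692676-110692695, minus strand): AAgAggAAAAgAAgAAAcAg
Hsp90ab1 after codon 230 (chr17:45570506-45570525, minus strand): AgAggAAgAgAAAggtgAgA
Hsp90ab1 after codon 262 (chr17:45570409-45570428, minus strand): AAAgAcAAgAAAAAgAAAAc
Hsp90ab1 after codon 548 (chr17:45568927-45568946, minus strand): AAgAgAAgAAgAAAAtggAg
These stretches hold 14, 14, 13, 10, 15 and 12 A, in runs broken mainly by G, and none of the 6 ends had any of the hexamers searched in the 50 nt before it. Isoforms that ended in an exon before the last numbered 4, 6 and 5 for the HSP90 genes in naive, undivided and 2-division cells, and 0, 2 and 1 for the CCT genes.

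The main end of Hsp90aa1 lay 504 nt past the stop codon and carried 4 isoforms in naive, 5 in undivided and 7 in 2-division cells. The bases before it are shown because this frequent end has no AATAAA or ATTAAA in the 50 nt before it. The nearest match was GATAAA, in capitals, 12 nt before the cut, and 9 of the next 20 bases were A.
Hsp90aa1 end at 504 nt (chr12:110691036-110691065, minus strand): tctgctttaaaaGATAAAtacagaggagat
Further Hsp90aa1 ends at 142 nt in undivided cells and at 67 nt after 2 divisions carried 1 isoform each, and both belonged to a whole annotated chain. Hsp90ab1 had 1 merged end in the last exon, 236 nt past the stop codon with AATAAA 14 nt before it, which carried 4 isoforms in naive, 14 in undivided and 10 in 2-division cells. The hexamer and distance given are those of base 45567779, after which 3 of the next 20 bases were A. The merged isoforms stopped at bases 45567775 to 45567801. Those that stopped at 45567801, the most upstream of these on the minus strand, had ATTAAA 7 nt before the end. There 11 of the next 20 bases were A, and each library had such isoforms.

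Over all members, ends within 24 nt of the next were merged and gave 33 distinct 3′ ends. Naive cells had 18 of them, undivided cells 26 and 2-division cells 28. With ends within 10 nt merged the numbers were 19, 27 and 30, and within 50 nt 18, 25 and 24. The order of the activated libraries thus depended on the merging distance. Of the 33 ends, all 3 libraries shared 17, both activated libraries alone 5, naive cells alone had 1, undivided cells alone 4 and 2 divisions alone 6. In the last exon there were 24 ends, and 13, 19 and 22 of them were seen in naive, undivided and 2-division cells. More than 1 end in the last exon was seen for 3 members in naive cells (Cct5, Cct6a and Cct8) and for 6 members in each activated library, with Tcp1, Cct7 and Hsp90aa1 added. Each end of the last exon that naive cells had was also in both activated libraries. Of the 24 ends in the last exon 15 had AATAAA or ATTAAA and 1 was followed by at least 12 A in 20 bases, while of the 9 other ends none had these hexamers and 7 were A-rich by this measure. Counted by isoform, AATAAA or ATTAAA preceded 67.7%, 74.3% and 75.3% of the ends of the members in naive, undivided and 2-division cells, and over all multi-exon isoforms 68.2%, 69.0% and 69.4%. At least 12 A followed 16.1% of the ends of the members in naive, 8.57% in undivided and 9.09% in 2-division cells, and 23.3%, 19.3% and 19.8% over all multi-exon isoforms of these libraries.

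**Figure D5:**
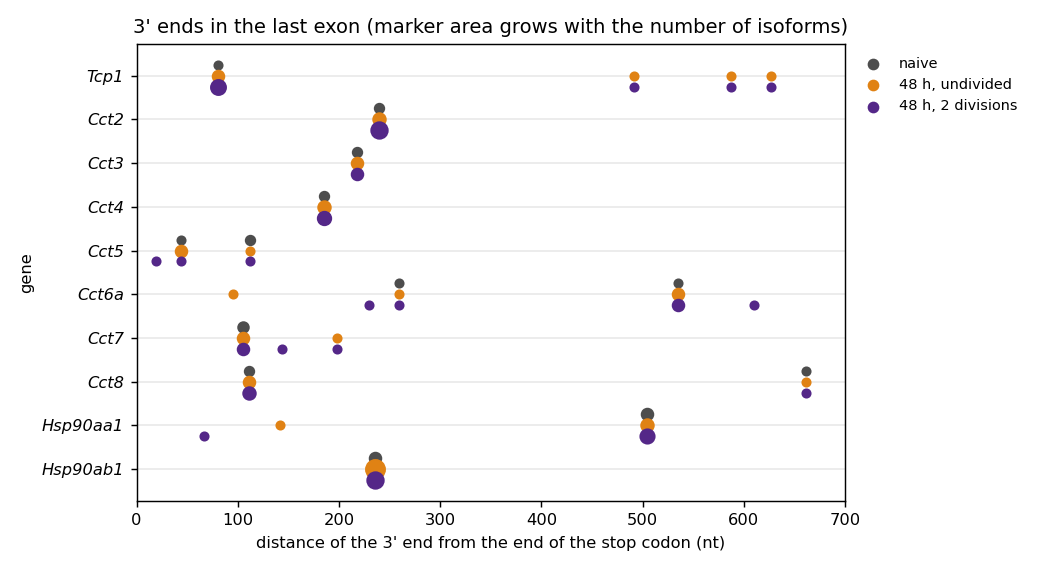
Distance of each 3′ end in the last exon from the end of the stop codon (x axis, nt) for each gene (y axis), coloured by library, with marker area growing with the number of isoforms. Tcp1 shows 1 naive end at 80 nt and 3 further ends at 491, 587 and 627 nt in both activated libraries, while Cct2, Cct3, Cct4 and Hsp90ab1 show 1 end each.

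Among other genes of protein folding, 61 genes in 8 lists were examined, and 44, 51 and 50 of them were seen in naive, undivided and 2-division cells. They had 114, 205 and 209 isoforms in these libraries. Of the 61 genes 19 in undivided and 17 in 2-division cells passed the rule for more isoforms than in naive cells, and 2 and 1 that for fewer. These counts can be read beside the 16.8% and 14.1% of all genes with more and the 7.55% and 9.64% with fewer. The bases differ, since the 61 genes were counted whether listed or not and the shares are over genes listed in either library compared.
The HSP70 system, which hands substrates to HSP90, had 46, 75 and 84 isoforms over 16 genes in naive, undivided and 2-division cells, and 6 genes passed for more isoforms in each activated library. Among them Hspa9, the mitochondrial HSP70, had 3 isoforms in naive, 14 in undivided and 19 in 2-division cells. Hspa5, the HSP70 of the endoplasmic reticulum, had 8, 17 and 16 in the same libraries. Hspa8, the constitutive HSP70 of the cytosol, had 3 isoforms in naive, 9 in undivided and 10 in 2-division cells, and Hspa4, a nucleotide exchange factor of HSP70, had 0, 2 and 5.
The co-chaperones of HSP90 had 24 isoforms over 14 genes in naive, 39 in undivided and 34 in 2-division cells, and 6 genes passed for more in undivided and 3 in 2-division cells. Of these Ppid, a prolyl isomerase that binds HSP90, had 4, 9 and 7 in these libraries. Prefoldin and phosducin-like genes, which assist CCT, had 3 isoforms over 9 genes in naive, 8 in undivided and 7 in 2-division cells. The relatives of HSP90 in organelles with the testis form Cct6b had 4, 20 and 19 isoforms over 3 genes in naive, undivided and 2-division cells. Most of these were from Hsp90b1, the HSP90 of the endoplasmic reticulum, with 3 in naive, 19 in undivided and 16 in 2-division cells. The chaperonin of mitochondria, Hspd1, had 4, 10 and 12 isoforms in these libraries.
The substrates of CCT had 24 isoforms over 10 genes in naive, 44 in undivided and 43 in 2-division cells, and 3 genes passed for more in undivided and 4 in 2-division cells. Actb, encoding beta-actin, had 4 isoforms in naive, 11 in undivided and 12 in 2-division cells, and the beta-tubulin gene Tubb5 had 2, 8 and 8. Tubulin folding cofactors, which act after CCT, had 6, 5 and 4 isoforms over 5 genes in naive, undivided and 2-division cells. The heat shock factors Hsf1 and Hsf2 had 3, 2 and 5 isoforms in sum in these libraries, and no gene of either of the last 2 lists passed for more isoforms.
The 5 genes whose isoform numbers lay nearest to the medians of the members, which were 3 in naive, 5.5 in undivided and 7 in 2-division cells, were Ldha, Hif1a, Lbr, Lta and Nadk. Ldha, encoding lactate dehydrogenase A, had 3, 6 and 7 isoforms in these libraries, at a Euclidean distance of 0.50 from the medians. Each of the other 4 lay at 1.12, with 2, 6 and 7 isoforms for Hif1a, 4, 5 and 7 for Lbr, 3, 5 and 6 for Lta and 2, 6 and 7 for Nadk. In all, 11 genes lay within 1.12, and those of equal distance were taken in alphabetical order.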

How the data were processed

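Long-read sequencing was done on 1 library per group. Per the study's methods, consensus reads were made with ccs, primers removed with lima, reads with a poly(A) tail clustered and collapsed with isoseq3 after mapping with pbmm2, and SQANTI3 was run for annotation. Other names in the submitters' processing notes are Subread and minimap2, with the builds mm10 and GRCm38. The deposited files list exon start and end positions on GRCm38, an annotation of position and no measured level. Read depth is not given in the sources used here, so numbers of isoforms stand in for it.

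Each isoform was assigned to the GENCODE M21 gene on its strand with which it shared the most splice sites, or failing that the most exonic sequence. The study names a later release, so an unannotated chain here may be annotated there. The reference transcript was the protein-coding basic transcript with the longest coding sequence, ties to the lowest identifier. An intron was retained with at least 1 nt of exon on each side. Ends of a gene within 24 nt were merged over the 3 libraries. Hexamers were searched in the 50 nt before an end on the transcript strand in the GRCm38.p6 sequence of RefSeq, from which all printed sequences come. Functions for skipped exons, retained introns and ends were tested on simulated isoforms of 1000 genes. Intervals are exact Clopper-Pearson intervals at 95%. They treat isoforms as independent, although those of 1 gene are not.

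The text names all 10 members, genes of the lists with at least 5 isoforms more or fewer than in naive cells in an activated library, the markers of cell types where a value was given, and the 5 nearest genes. The members and lists were chosen with earlier results of these data known. The software was numpy 2.4.6, scipy 1.17.1 and, for the plots, matplotlib 3.10.9 under Python 3.11.15.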

Additional observations from a re-analysis of the deposited data

How the results depend on the processing

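Of 57 values under alternative settings, 49 stayed within 1.5-fold of a count or within the interval of a share and 8 did not. With consecutive parts of an annotated chain accepted, 66.7%, 68.6% and 74.0% of the isoforms of naive, undivided and 2-division cells had an annotated chain, and 73.6%, 78.1% and 80.7% over all genes. With only isoforms from the first to the last exon counted, a choice made after seeing the data, the members had 38 isoforms in undivided cells and 38 in 2-division cells, and 4 of 10 members, against 10.1% of all genes, passed the rule for more isoforms after 2 divisions. At least 3-fold as many isoforms were found for 3 of 10 members in undivided cells and for 4 of 10 after 2 divisions, and for 14.1% and 12.1% of all genes. The other settings were other merging distances, other reference exons and introns, a longer exon flank, stricter rules for assignment or for the start, A-rich ends or single-exon isoforms left out, distinct chains, and, again chosen after seeing the data, Cct6a left out. No paired analysis was possible because each group has 1 library and no test was made, and for the same reason no replicate could be left out. The main limits are the missing read counts, the unknown depth and the naive library's own sequencing cell.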
